A study of Saccharomyces cerevisiae with 72 samples.

Results

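The first minutes of DNA replication were followed in Saccharomyces cerevisiae (budding yeast, W303 background) released from a G1 arrest. Entry into S phase was covered by 16 libraries, 1 for each of 4 strains at 15, 20, 25 and 30 min after release, out of 72 samples in the series. They were chosen by strain and minute from the labels, and no measured value entered that choice. Libraries at 35 min (1 per strain) served as a check.

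All 4 strains were MATa, lacked SWE1 (swe1delta::TRP1) and carried CDC55-AID, so that no library came from cells with untouched PP2A-Cdc55. All also carried cse4delta::NatMX with leu2::CSE4-HA6::LEU2, a tagged copy of the centromeric histone Cse4 in place of the deleted gene, and osTir1 driven by the GPD1 promoter (his3::PGPD1-osTir1). Strain D combined PPH3-AID with sld3-R(2A)-13myc. Strain C had PPH3-AID with SLD3-13myc. Strain B had sld3-R(2A)-13myc and strain A had SLD3-13myc, both with no PPH3-AID. Cells were arrested with the mating pheromone alpha factor, and 1 mM of the auxin IAA was added during a shift to 37 °C for 30 min. Cells were then released into YPAD medium with 1 mM IAA. The auxin makes the Tir1 ubiquitin ligase destroy proteins with an AID tag, and how far Cdc55 and Pph3 were depleted was not measured in the data used here. Each strain and minute had 1 library, so no difference between strains or minutes has a replicate check and no test was possible.

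Replication starts at origins, where the Mcm2-7 helicase is loaded in G1 and switched on in S phase. Sld3 is one of the limiting factors of that switch: it helps bring Cdc45 to the helicase and, once phosphorylated by the cyclin-dependent kinase, binds Dpb11. Cdc55 is a regulatory subunit of the phosphatase PP2A, Pph3 is the catalytic subunit of the phosphatase PP4, and Swe1 is a kinase that restrains the cyclin-dependent kinase. In budding yeast, origins fire in a typical order, with many origins near centromeres early and many near telomeres late. A locus that is copied early is sequenced more often in S phase than a late one, and this is what was measured.

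The authors' tables list, for each 1-kb bin, the ratio of S-phase to G1 reads of the same strain. Each ratio was divided by its library median and then by the same bin at 15 min, the quotient was set to a genome median of 1, and a running mean over 5 kb was taken. The result is called relative copy number below. It shows which loci are ahead of the rest of the genome and carries no information on bulk DNA content. How many cells had entered S phase and how far each had gone cannot be told apart. A bin counted as risen at a relative copy number of 1.2 or more. A peak was the highest bin within 10 kb on each side, at 1.2 or more, that stood out from its surroundings by at least 3 times the noise of the running mean. That noise, estimated from neighbouring bins, lay between 0.023 and 0.0299 in the 12 comparisons with 15 min. The tables hold no read counts, so sequencing depth is unknown. Coordinates are those of sacCer3, and genes are given as landmarks for DNA copy number, not for expression.

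Replication became visible at 25 min in every strain, and strain D showed the fewest risen loci. At 20 min no bin had risen in D, C, B or A. At 25 min 34 bins had risen in D (0.300% of 11323 bins), 79 in C (0.698%), 281 in B (2.48%) and 1151 in A (10.2%). At 30 min the counts were 247 bins in D (2.18%), 1588 in C (14.0%), 1063 in B (9.39%) and 2879 in A (25.4%). Strain A thus had more risen bins at 25 min than D or B had at 30 min. For B this depends on the settings. Over G1 A had 773 risen bins at 25 min and B had 980 at 30 min. At a threshold of 1.1 A had 2189 at 25 min and B had 2289 at 30 min. C had fewer risen bins than B at 25 min and more at 30 min. The order at 25 min depends on the settings: with the 20 min library as denominator C had 642 risen bins and B 508, and at a threshold of 1.3 C had 23 and B 20. Over G1 it held, with 52 in C and 262 in B.

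Peaks followed a similar order. D had 6 peaks at 25 min, C had 10, B had 29 and A had 74. At 30 min D had 16 peaks, C had 58, B had 57 and A had 110. C and B differed by 1 peak at 30 min, and the peaks of C were taller, with a median height of 1.40 in C, against 1.29 in B. The median peak height at 30 min was 1.28 in D and 1.42 in A. D had fewer peaks than A on 15 of 16 chromosomes at 30 min and as many on the other. B had fewer than A on 13 chromosomes and as many on 3. C had fewer on 13, as many on 2 and more on 1, chromosome IV, with 6 peaks in C and 5 in A.

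**Figure D1:**
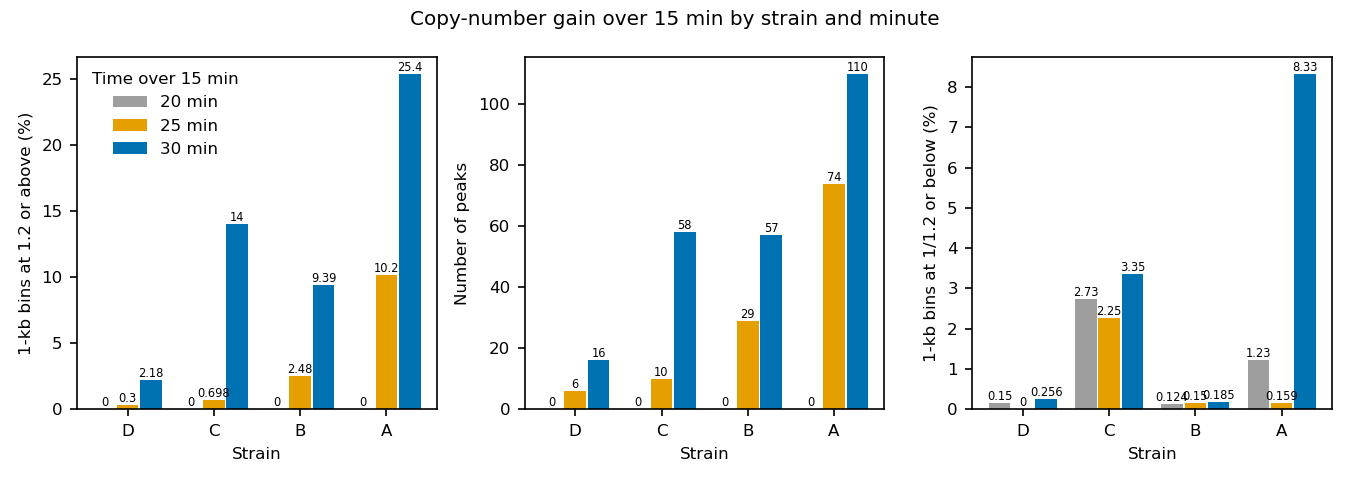
Share of 1-kb bins at a relative copy number of 1.2 or more (left, percent), number of peaks (middle) and share of bins at or below 1/1.2 (right, percent) in strains D, C, B and A at 20, 25 and 30 min over 15 min. Each bar is 1 library over 1 library, so there are no error bars. No bar is above 0 at 20 min in the left and middle panels, and A has the tallest bars at 25 and 30 min there.

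The same rule applied downwards gave the bins that stood low against the genome median. In C, B and A most bins low at 20 min had risen by 30 min (shares below), so a low value at 20 min does not mark a late locus. At 20 min 17 bins (0.150%) lay at or below 1/1.2 in D, 309 (2.73%) in C, 14 (0.124%) in B and 139 (1.23%) in A. At 25 min there were 0 such bins in D, 255 (2.25%) in C, 17 (0.150%) in B and 18 (0.159%) in A. At 30 min there were 29 (0.256%) in D, 379 (3.35%) in C, 21 (0.185%) in B and 943 (8.33%) in A. The low bins of C outnumbered its risen bins at 25 min, and no other strain showed this at 25 or 30 min.

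The authors' scale factor, which sets the mean ratio of a library, differed between strains at the same minute. It was 1.157 in D, 1.218 in C, 1.165 in B and 1.251 in A at 25 min. At 30 min it was 1.275 in D, 1.353 in C, 1.244 in B and 1.435 in A. The factor cancels from relative copy number, and how the authors set it is not given in the sources used here. In D it was 1.111 at 15 min and 1.039 at 20 min, so it did not rise steadily there. Libraries with similar factors still differed in peaks: D at 30 min (1.275) had 16, C at 25 min (1.218) had 10, B at 30 min (1.244) had 57 and A at 25 min (1.251) had 74.

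The first loci to rise were few in D. Its 6 peaks at 25 min lay at ADK1 and SIR4 on chromosome IV (917001 to 918000), RCR1 on II (246001 to 247000), TGA1 and BUD14 on I (166001 to 167000), KCC4 on III (80001 to 81000), FAB1 on VI (190001 to 191000) and HIP1 and TDH3 on VII (882001 to 883000). SIR4 encodes a silencing protein, KCC4 a kinase of the bud neck, FAB1 a lipid kinase, HIP1 a histidine permease and TDH3 a glycolytic dehydrogenase. Their heights ran from 1.21 to 1.25 in D. All 6 bins had also risen in A at 25 min, where they stood between 1.31 and 1.57. In C 3 of the 6 had risen at 25 min and in B 4 of the 6.

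The highest locus of C at 25 min was the same bin at RCR1 on II. Relative copy number there at 20 min was 0.97 in D, 0.95 in C, 0.95 in B and 1.04 in A. At 25 min it was 1.24 in D, 1.44 in C, 1.32 in B and 1.57 in A. At 30 min it was 1.33 in D, 1.76 in C, 1.44 in B and 1.79 in A. This locus lies 8.3 kb from the centromere and ranked among the 5 highest peaks of all 4 strains at 30 min. It rose at each step from 20 to 25 and from 25 to 30 min in every strain.

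A second leading locus, at HIS4 on chromosome III (66001 to 67000), stands at a gene of histidine synthesis on the left arm. It was at 0.93 in D, 0.87 in C, 0.87 in B and 0.85 in A at 20 min. At 25 min it was at 1.21 in D, 1.26 in C, 1.24 in B and 1.44 in A. At 30 min it was at 1.39 in D, 1.76 in C, 1.41 in B and 1.71 in A. It had the highest lowest value over the 4 strains at 30 min, and D and B were close to each other there, as were C and A. The highest bin of D in the whole genome, 1.47 at 30 min, lay 3 kb to its left at MXR2 and STE50 (63001 to 64000). The widest risen stretch of D at 30 min, 54 kb from 30001 to 84000 on III, covers both.

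The locus at TGA1 and BUD14 on I was at 1.23 in D, 1.37 in C, 1.25 in B and 1.48 in A at 25 min. At 30 min it was at 1.28 in D, 1.72 in C, 1.35 in B and 1.70 in A. D and B thus changed little between both minutes, and C changed most. The locus at ADK1 and SIR4 on IV led D at 25 min with 1.25, against 1.09 in C, 1.301 in B and 1.41 in A. At 30 min it was at 1.25 in D, 1.44 in C, 1.31 in B and 1.54 in A. It thus changed little between 25 and 30 min in D and B and more in C. It was picked as a peak of D and B at 25 min, so its heights in both at 25 min follow from that choice. At RAD9 and SPR28 on IV (903001 to 904000), a peak of D at 30 min, D went from 1.16 at 25 min to 1.29 at 30 min. Over G1 the locus at ADK1 and SIR4 stood at 1.19 at 30 min and 1.28 at 35 min in D, and at 1.29 and 1.39 in B.

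B led with other bins. Its highest peak at 25 min lay at IPP1 on II (257001 to 258000), the gene of the soluble inorganic pyrophosphatase, with 1.18 in D, 1.25 in C, 1.36 in B and 1.43 in A. Further leading peaks of B were SNG1 on VII, LSB3 and HIS2 on VI, ADK1 and SIR4 on IV, and a tRNA gene, SUP56, on I. At SNG1 (893001 to 894000) relative copy number at 25 min was 1.13 in D, 1.11 in C, 1.31 in B and 1.42 in A. There both strains with PPH3-AID were below 1.2 at 25 min, and both strains without it were above it. SNG1 was picked as a peak of B, so its height in B follows from that choice. The strains already stood apart in this direction at 20 min, with 0.93 in D, 0.89 in C, 1.04 in B and 1.02 in A. At 30 min SNG1 was at 1.18 in D, 1.44 in C, 1.37 in B and 1.56 in A, so that D alone was still below 1.2.

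All peaks of 25 and 30 min merged into 166 loci, and 147 of these were a peak at 30 min in at least 1 strain. Because the loci were chosen by their heights and each stands at the bin of its tallest peak, the following counts are descriptions. At 30 min 22 of the 147 had risen in all 4 strains (26 of the 166). Of the 147, a further 54 had risen in C, B and A, 18 in C and A, 3 in B and A, and 50 in A alone. These 5 patterns cover all 147: no locus had risen in D without C, B and A, and none in C or B without A. The shares of all bins risen at 30 min stand above (2.18% in D, 14.0% in C, 9.39% in B, 25.4% in A).

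**Figure D2:**
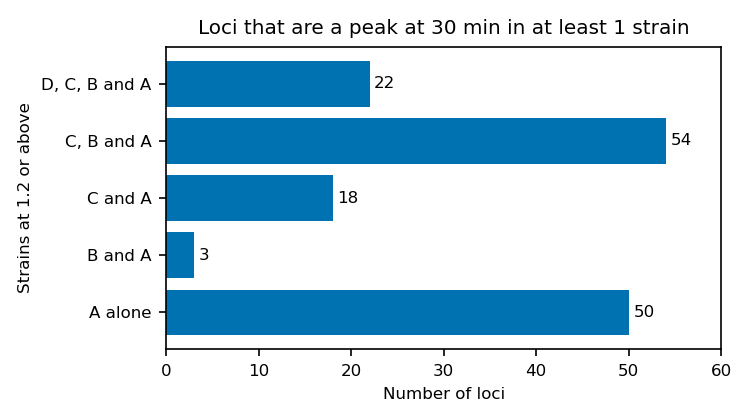
Number of loci (horizontal axis) by the strains in which they stood at a relative copy number of 1.2 or more at 30 min over 15 min, for the 147 loci that are a peak at 30 min in at least 1 strain. The 5 bars are 22, 54, 18, 3 and 50 loci from top to bottom, and no other combination of strains occurred.

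The peaks of D gave the same picture without merging. All 16 peaks of D at 30 min lay in bins that had risen in C, in B and in A, with medians of 1.51 in C, 1.34 in B and 1.58 in A. With 1.3 in place of 1.2, D had 5 peaks, and all 5 were past 1.3 in C, B and A. Of 11323 bins, 935 were past 1.3 in C, 354 in B and 1897 in A. With 1.1, D had 50 peaks, and 39 of them were past 1.1 in C, 38 in B and 38 in A, so the nesting was not complete at that threshold. Past 1.1 were 2454 of all 11323 bins in C, 2289 in B and 3970 in A. Over the 20 min library all 33 peaks of D, and over G1 all 11, had risen in C, B and A as well. The shares of all bins over 20 min were 20.3% in C, 13.1% in B and 28.6% in A. Over G1 they were 12.8% in C, 8.65% in B and 23.3% in A. Conversely, of the 110 peaks of A, 13 had risen in D, 59 in C and 50 in B. The lowest peak that D kept at 30 min stood at 1.2009 and the highest one it missed at 1.1996, so the count in D depends on small differences near 1.2.

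Stretches of risen bins behaved alike. At 30 min D had 19 stretches with a median width of 9 kb, and each overlapped a stretch in C, in B and in A. C had 60 stretches with a median width of 26.5 kb, B had 64 of 10.5 kb and A had 101 of 25 kb. B thus had more stretches than C, but narrower ones. In total the stretches covered 258 kb in D, 1612 kb in C, 1080 kb in B and 2903 kb in A, out of 11323 1-kb bins. The widest stretch was 54 kb in D on III, 87 kb in C on X, 67 kb in B on VI and 153 kb in A on V.

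The 22 loci risen in all strains, among those with a peak at 30 min, were spread over 9 of 16 chromosomes. III held 4, I, IV, VI and XII held 3 each, II and IX held 2 each, and X and XIII held 1 each. V, VII, VIII, XI, XIV, XV and XVI held none. Of the 22, 5 lay within 25 kb of a centromere, where 6.76% of all bins lie. Within 30 kb of a chromosome end, where 7.71% of all bins lie, there were 2. Their median at 25 min was 1.15 in D, 1.15 in C, 1.22 in B and 1.40 in A. At 30 min their median was 1.26 in D, 1.54 in C, 1.35 in B and 1.62 in A. The medians of D and C at 25 min were close (1.155 in D and 1.146 in C), and C was above B at 30 min. The error of a median over loci was not estimated. At 25 min 4 of them had risen in D, 5 in C, 13 in B and 22 in A.

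**Figure D3:**
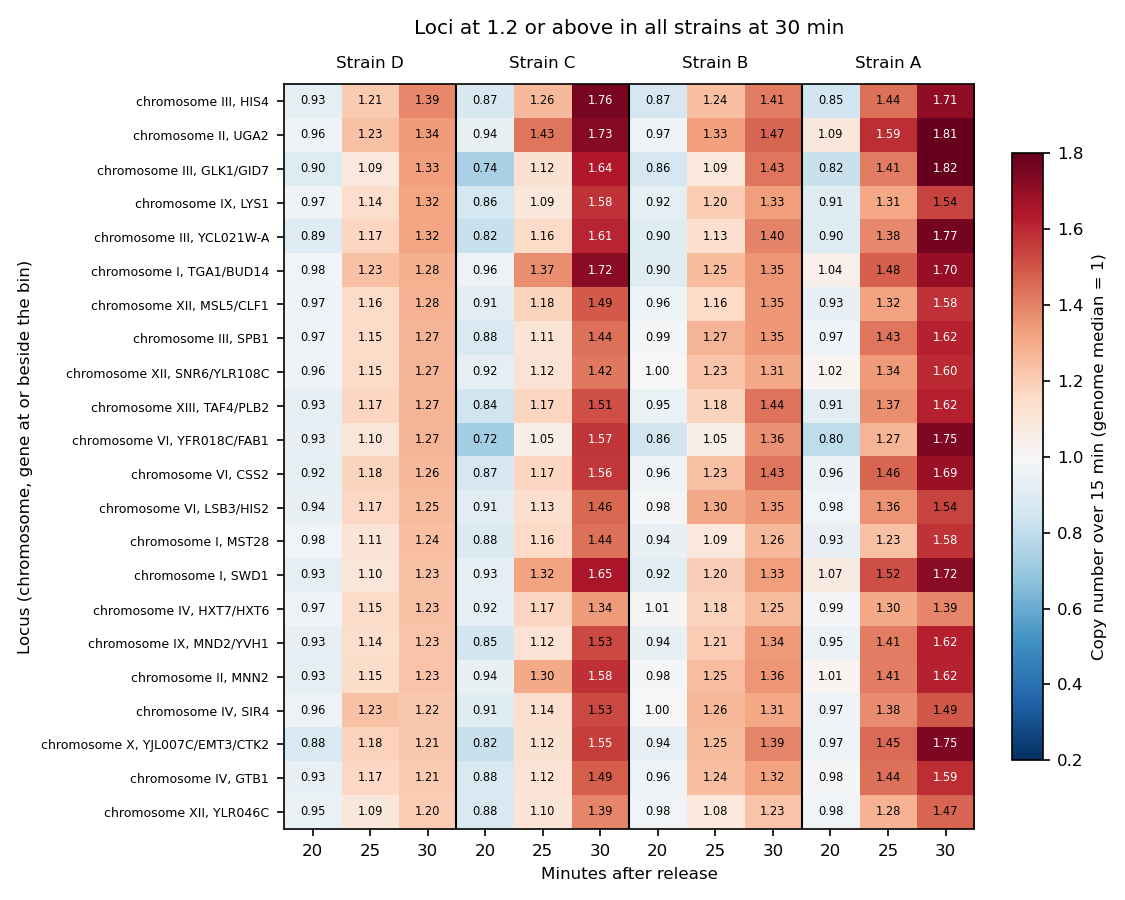
Relative copy number over 15 min (colour and printed value, genome median 1) of the 22 loci at 1.2 or more in all strains at 30 min. Rows are loci named by chromosome and gene, sorted by their lowest value at 30 min, and columns are 20, 25 and 30 min in strains D, C, B and A. In D and C all 22 loci are below 1 at 20 min, and the 30 min columns of C and A are the darkest red.

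Members of this group differed in how far D lagged. At HXT7 and HXT6 on IV, a pair of hexose transporter genes with nearly identical sequence, the values at 30 min were 1.23 in D, 1.34 in C, 1.25 in B and 1.39 in A. The spread between strains was thus small there, and reads from such copies may be hard to place. At CTK2 on X, which encodes a cyclin-like subunit of an RNA polymerase II kinase, they were 1.21 in D, 1.55 in C, 1.39 in B and 1.75 in A. At TAF4 and PLB2 on XIII, 9.09 kb from the centromere, they were 1.27 in D, 1.51 in C, 1.44 in B and 1.62 in A. At MSL5 and CLF1 on XII, a pair of splicing factor genes, they were 1.28 in D, 1.49 in C, 1.35 in B and 1.58 in A. D was the lowest and A the highest of the 4 strains at each of these 4 loci, which were picked from the group. That order was not general. At HIS4 and at TGA1 and BUD14 C was above A at 30 min, as given above. At NRE1 on IX (421001 to 422000) B was lowest with 1.304, D was close at 1.317, and C and A both stood at 1.57.

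Around the 22 loci the signal was broad. At 30 min the mean of unsmoothed bins at the locus was 1.28 ± 0.0752 in D, 1.55 ± 0.136 in C, 1.37 ± 0.0662 in B and 1.60 ± 0.112 in A (SD over the 21 loci with a listed bin). At 20 kb to the left it was 1.17 ± 0.146 in D, 1.41 ± 0.218 in C, 1.27 ± 0.181 in B and 1.53 ± 0.243 in A (SD over 20 loci). Several of these loci are neighbours on III, VI and I, so that one lies within the window of another.

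**Figure D4:**
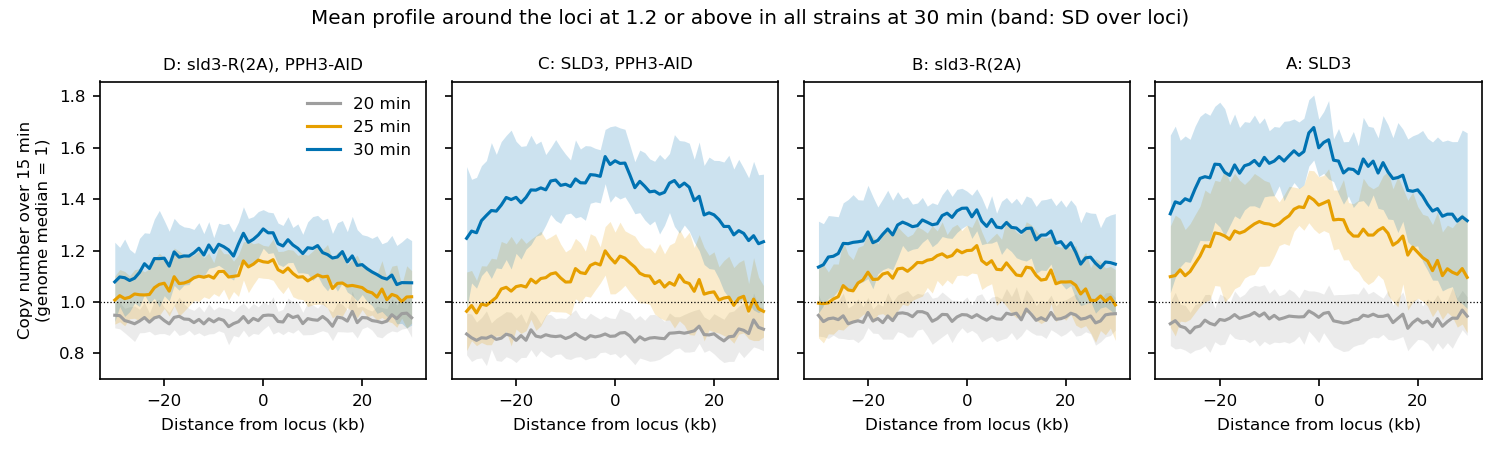
Mean relative copy number over 15 min (vertical axis, unsmoothed 1-kb bins) against distance from the 22 loci (kb), in strains D, C, B and A from left to right. Lines are 20, 25 and 30 min, and bands are the SD over loci. At the locus the 30 min line stands at 1.28 in D, 1.55 in C, 1.37 in B and 1.60 in A, and the 20 min line is below 1 in every panel.

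The 20 min libraries stood out at these loci. Their median at 20 min over 15 min was 0.94 in D, 0.88 in C, 0.96 in B and 0.97 in A. All 22 were below 1 in D and in C, 21 in B and 17 in A. The value 1 is near the middle of all bins, whose medians at 20 over 15 min were 1.007 in D, 1.009 in C, 1.004 in B and 1.005 in A. Loci due to rise were thus below the genome median 5 to 10 min earlier. The 15 min libraries over G1 had the same tendency, with medians of 0.97 in D, 0.95 in C, 0.96 in B and 0.90 in A. The loci were chosen by 30 over 15 min, so low values of the 15 min library are favoured by that choice. At 30 min over G1, with no 15 or 20 min library, the same loci had lower medians than over 15 min (values below). That choice favours this difference as well.

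The bins that were low at 20 min were largely bins that later rose. Of the 309 low bins of C, 80.3% had risen in C at 30 min, where 14.0% of all bins had risen. Of the 139 low bins of A, 97.8% had risen in A at 30 min, where 25.4% of all bins had. In B all 14 low bins rose (9.39% of all bins), and in D 1 of 17 rose (2.18% of all bins). These shares and the rise use the same 15 min library. Other strains share no library with C: of its 309 low bins, 308 were below 1 at 20 min in D, 308 in B and 309 in A. Their medians at 20 min were 0.899 in D, 0.903 in B and 0.848 in A, where the medians of all bins were 1.007, 1.004 and 1.005. The lowest point at 20 min lay on III in C, B and A, between 55001 and 60000 and near HIS4, with 0.67 in C, 0.77 in B and 0.70 in A. In D it lay at GTT3 and NPP2 on V (124001 to 125000), with 0.80 in D, 0.75 in C, 0.87 in B and 0.81 in A.

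Using the 20 min library as the denominator therefore made the peaks taller and more numerous. At 25 over 20 min D had 25 peaks (3.19% of all bins risen), C had 44 (5.67%), B had 35 (4.49%) and A had 88 (14.9%). At 30 over 20 min D had 33 peaks (7.02%) and C had 83 (20.3%). The highest bin of C at 30 min reached 2.54 over 20 min, above a doubling, against 1.76 over 15 min. Over G1, with no later library in the denominator, D had 11 peaks at 30 min (1.47% of all bins risen), C had 52 (12.8%), B had 49 (8.65%) and A had 101 (23.3%). The 22 loci then had medians of 1.21 in D, 1.47 in C, 1.31 in B and 1.46 in A. Only 14 of them were past 1.2 in D over G1, and all 22 were in C, B and A. C and A were thus level over G1, while A was above C over 15 min.

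Whether the earliest loci were the same in all strains was also asked with lists of equal length, since the strains differed in contrast. The 250 bins with the highest relative copy number are 2.21% of all bins. At 30 min the lists of D and C shared 173 bins (69.2%), those of D and B 164 (65.6%) and those of D and A 145 (58.0%). C and B shared 177 (70.8%), C and A 186 (74.4%) and B and A 165 (66.0%). A total of 117 bins (46.8%) were in all 4 lists. At 25 min the pairs shared 129 to 152 bins and all 4 shared 79 (31.6%). At 20 min the pairs shared 8 to 31 bins and all 4 shared 0. Neighbouring bins are not independent, and strains share no library in these comparisons.

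The same strain at a later minute gives a scale for these shares. The 250 highest bins at 30 over 15 min and at 35 over 20 min, which share no library, had 115 bins in common in D (46.0%), 130 in C (52.0%), 127 in B (50.8%) and 97 in A (38.8%). At 35 over G1, which also shares no library, it was 164 in D (65.6%), 122 in C (48.8%), 149 in B (59.6%) and 99 in A (39.6%). Each pair of strains at 30 min shared more bins than a strain shared with itself at 35 over 20 min, but over G1 the value of D was above the 145 shared by D and A. These are different minutes of the same culture, not repeats of 30 min. At matched scale factors, D at 30 min and A at 25 min shared 147 bins (58.8%).

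Lists of the 25 highest peaks, with peaks matched within 5 kb, gave shares of the same order with wide intervals. D had 16 peaks at 30 min, of which 9 were in the list of C (56.2%, 95% Wilson interval 33.2 to 76.9%), 12 in that of B (75.0%, 50.5 to 89.8%) and 10 in that of A (62.5%, 38.6 to 81.5%). These were 36.0% of the list of C, 48.0% of that of B and 40.0% of that of A. C and B shared 15 of 25, C and A 15 of 25, and B and A 14 of 25. The intervals cover counting error only. Of 45 merged loci, 6 were in all 4 lists at 30 min, and at 25 min 0 of 44 were. With peaks matched within 10 kb, 8 loci were in all 4 lists at 30 min.

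Chromosomes contributed unequally to the 250 highest bins at 30 min. III gave 53 in D, 46 in C, 51 in B and 55 in A, and 40 of these were in all 4 lists. II gave 33 in D, 35 in C, 37 in B and 37 in A, with 25 in all lists. VIII, XI and XVI gave none in any strain. V differed most in D, with 1 bin in D, 28 in C, 33 in B and 34 in A. IV and IX went the other way, with 28 bins of IV in D, 13 in C, 9 in B and 3 in A, and 32 of IX in D, 22 in C, 16 in B and 7 in A.

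With other denominators D also had the fewest bins on V, but more than 1 of them. Over G1 V gave 8 bins in D, 24 in C, 20 in B and 32 in A at 30 min, and over 20 min 24 in D, 60 in C, 46 in B and 59 in A. In the libraries at 35 min over 20 min it gave 49 in D, 71 in C, 62 in B and 68 in A. For IV the excess of D was not seen over 20 min, with 4 bins in D, 7 in C, 13 in B and 7 in A. Nor was it seen over G1, with 17 bins in D, 2 in C, 21 in B and 23 in A. For IX, D and C were level over G1, with 32 bins each, against 7 in B and 10 in A. The loci behind this on V lie on the left arm and around the centromere. At MCM3 (87001 to 88000), which encodes a subunit of the Mcm2-7 helicase, values at 30 min were 1.15 in D, 1.51 in C, 1.40 in B and 1.62 in A. At IRC22 and MNN1, next to the centromere, they were 1.11 in D, 1.53 in C, 1.32 in B and 1.66 in A. D had not risen at either locus, and the other strains had at both.

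Centromeres were ahead of the genome in all strains by 30 min, and least in D. The median relative copy number within 10 kb of the 16 centromeres was 1.09 in D, 1.32 in C, 1.23 in B and 1.47 in A at 30 min. The medians of the rest of the genome were 1.00 in D, 0.996 in C, 0.991 in B and 0.984 in A. At 25 min the centromeric medians were 1.05 in D, 1.03 in C, 1.103 in B and 1.24 in A. Taken one by one at 30 min, 2 of 16 centromeres had risen in D, 13 in C, 11 in B and 15 in A. D was below C, below B and below A at all 16. C and B were each below A at all 16, and C was above B at 15. Peaks within 25 kb of a centromere made up 4 of 16 in D, 16 of 58 in C, 18 of 57 in B and 22 of 110 in A, where 6.76% of bins lie that close.

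A rank within each strain takes out the scale of the contrast, but not the weight of noise in it. At 30 min the SD of relative copy number over all bins was 0.0705 in D, 0.155 in C, 0.108 in B and 0.217 in A. The noise of the running mean was 0.0255 in D, 0.0266 in C, 0.0236 in B and 0.0291 in A, so noise weighs most on ranks in D. At 30 min the median centromere stood at percentile 91.9 of all bins in D, 92.0 in C, 92.6 in B and 94.4 in A. At least percentile 90 was reached by 9 of 16 centromeres in D, 11 in C, 11 in B and 11 in A. The lowest was XV at percentile 25.5 in D, XV at 78.6 in C, XV at 78.8 in B and XVI at 73.8 in A. At 30 min the middle of the ranks was thus similar in all strains, and D had the lowest single centromere. At 25 min the median centromere stood at percentile 88.5 in D, 72.6 in C, 91.9 in B and 94.0 in A. The lowest was then VI at 15.0 in D, 4.61 in C and 37.9 in B, and XV at 66.4 in A. Neither statement for 30 min thus held at 25 min, where C was lowest. At 35 over 20 min the lowest was at percentile 75.0 in D, 76.7 in C, 77.8 in B and 74.3 in A, so D did not stand apart there.

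**Figure D5:**
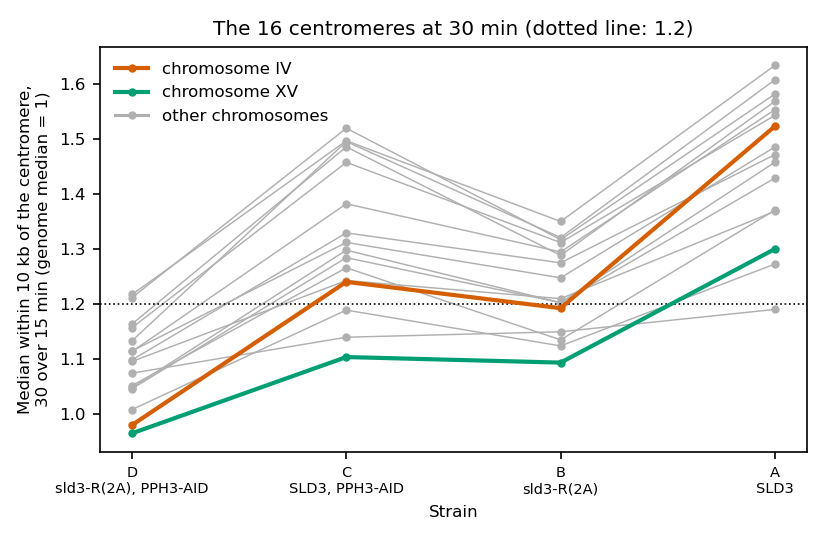
Median relative copy number within 10 kb of each of the 16 centromeres at 30 over 15 min (vertical axis) in strains D, C, B and A (horizontal axis). Each line is 1 chromosome, with IV and XV coloured, and the dotted line is 1.2. IV is at 0.98 in D, 1.24 in C, 1.19 in B and 1.52 in A, and every line is lowest in D.

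The centromere of IV had the largest gap between D and A of the 16, -0.544. Its surroundings stood at 0.98 in D, 1.24 in C, 1.19 in B and 1.52 in A at 30 min. These were percentiles 34.8 in D, 88.4 in C, 89.9 in B and 96.1 in A. At 25 min the percentiles were 57.9 in D, 25.0 in C, 87.6 in B and 89.2 in A, so C was the lowest then. The locus at RMD1 (449001 to 450000), 0.248 kb from the midpoint of the interval that holds the centromere, lost the most rank in D together with the locus at MAF1 and SOK1 beside it, at V near PAC2 and TMA20, at SNX4 and TAD2 on X and at TIR2 on XV. These are the 5 largest losses, so their size is a description. At RMD1 relative copy number was 1.00 in D, 0.89 in C, 0.95 in B and 0.86 in A at 20 min. At 25 min it was 1.01 in D, 0.92 in C, 1.08 in B and 1.15 in A. At 30 min it was 0.98 in D, 1.23 in C, 1.18 in B and 1.57 in A, so D alone had not moved ahead of the genome median. In the libraries at 35 min over 20 min, which share no library with these, the centromere of IV stood at percentile 77.1 in D, 87.9 in C, 91.3 in B and 96.7 in A.

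TIR2 on XV, a cell wall protein gene 20.0 kb from the centromere, was at 0.92 in D, 1.08 in C, 1.13 in B and 1.44 in A at 30 min. The 5 largest gains in rank of D over A were at HXT7 and HXT6 on IV, NMD3 on VIII, SEC28 and RPN2 on IX, GTR1 on XIII, and VIK1 and YAH1 on XVI. D was below A in height at all 5: at SEC28 and RPN2, for instance, the value at 30 min was 1.14 in D, 1.33 in C, 1.22 in B and 1.36 in A. At VIK1 and YAH1 it was 1.08 in D, 1.07 in C, 1.11 in B and 1.26 in A, so A alone had risen there.

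Chromosome ends showed no common direction. Within 30 kb of an end 4.81% of bins had risen in D at 30 min, against 1.96% of the other bins. In C it was 15.1% of end bins and 13.9% of others, in B 8.59% and 9.45%, and in A 19.6% and 25.9%. Ends thus held more than their share of risen bins in D at 30 min and less in A, while both shares were close in C and B. Neighbouring bins are not independent, and only 2 of the 16 peaks of D at 30 min lay that close to an end. In C it was 3 of 58 peaks, in B 4 of 57 and in A 4 of 110, where 7.71% of all bins lie. At 25 min the shares were 0.344% of end bins and 0.297% of others in D, and 1.83% and 0.603% in C. They were 2.98% and 2.44% in B, and 8.93% and 10.3% in A, so B went the other way than at 30 min.

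The loci held up in libraries that their choice did not use. All 16 peaks of D at 30 min were past 1.2 at 35 over 20 min (16.2% of all bins), with a median of 1.48. So were all 58 of C (30.1% of all bins, median 1.60), 54 of 57 in B (21.4%, median 1.43) and 82 of 110 in A (27.7%, median 1.34). For the peaks of 25 min seen at 30 over 20 min, the counts were 6 of 6 in D (7.02% of all bins), 10 of 10 in C (20.3%), 28 of 29 in B (13.1%) and 71 of 74 in A (28.6%). The denominator at 20 min is the library that was low at early loci. At 30 over G1, the peaks of 25 min passed in 4 of 6 cases in D (1.47% of all bins), 10 of 10 in C (12.8%), 29 of 29 in B (8.65%) and 73 of 74 in A (23.3%). The lowest of the 6 in D stood at 1.12. Over G1, at 35 min, the counts for the peaks of 30 min were 16 of 16 in D (10.2% of all bins), 58 of 58 in C (24.5%), 55 of 57 in B (18.8%) and 79 of 110 in A (21.1%). These libraries come from the same cultures, so they repeat the measurement but not the experiment.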

How the data were processed

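Reads were processed with Bowtie2 2.2.6, SAMtools 1.7.2, bedtools 2.26.0 and sacCer3, per the submitters' processing notes. DNA came from phenol-chloroform extraction and TruSeq Nano libraries, per the labels' protocols. The ratio the authors deposited for each 1-kb bin is S-phase over G1 reads of the same strain times a scale factor, per the file headers. The 11286 bins listed in all 20 tables used entered, and the running mean, with at least 3 bins present, covered 11323 bins. Later libraries and chromatin immunoprecipitation were not used.

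Tables were analysed with Python 3.11.15, numpy 2.4.6, pandas 2.3.3 and scipy 1.17.1, and the peak rule was tested on simulated data. Loci are peaks merged within 5 kb, and stretches bridge gaps of up to 2 kb. Centromeres are midpoints between the innermost genes of both arms in RefSeq R64. Members and lists were chosen with earlier results of these data known. Loci were named as the 5 highest peaks of each strain and minute, the 10 with the highest lowest value, and the 5 largest gains and losses of rank in D against A; others were chosen after their values were seen. Alternatives changed the denominator, window, scaling, threshold, prominence, flank, matching and list length. No origin annotation or genome sequence was used.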

Additional observations from a re-analysis of the deposited data

Results flagged for a closer look

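At RMD1 on chromosome IV (449001 to 450000), at its centromere, D stood below the genome median at 30 min with 0.976, while C, with 1.23, and A, with 1.57, had risen. D and C differ in the SLD3 allele, and D and A in both alleles. At TIR2 on XV (346001 to 347000) D stood at 0.921 and A had risen to 1.44. The 0.976 of D at RMD1 differed from 1 by less than the noise of the running mean, 0.0255. D was thus level with the genome median at RMD1 and below it at TIR2. The differences were not tested, since each strain and minute has 1 library. Both loci had been named for their loss of rank in D.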

How the results depend on the processing

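No named height that had risen fell below 1. The lead of A at 25 min over B at 30 min in risen bins reversed over G1 and at 1.1. The order of B and C at 25 min reversed for risen bins over 20 min and at 1.3, and for peaks over 20 min; that of their peak counts at 30 min, 1 apart, varied with the settings. Of 363 alternative values for counts and shares, 305 stayed within 1.5 times of the value reported, or within the interval of a share, and 58 moved. No count of bins shared among the 250 highest moved. With the 20 min library as denominator, risen bins were 361 in D, 642 in C and 508 in B at 25 min and 795 in D at 30 min; peaks were 25 in D and 44 in C at 25 min and 33 in D at 30 min, and the share of peaks of D found in A was 36.0%. Over G1, risen bins at 25 min were 16 in D and 52 in C, C had 5 peaks, the shares were 36.4% of D in B, 40.0% of C in B, 36.0% of C in A and 32.0% of B in A, and 1 locus was in all 4 lists. A 3-kb mean gave D 11 peaks at 25 min and 47.8% of D in B. A 9-kb mean gave D 21 risen bins and C 3 peaks at 25 min. At 1.1, risen bins at 25 min were 430 in D, 542 in C, 967 in B and 2189 in A, with 40, 77, 80 and 120 peaks in the same order; at 30 min they were 880 in D, 2454 in C and 2289 in B, with 50 peaks in D and 100 in B. At 1.3, risen bins at 25 min were 0 in D, 23 in C, 20 in B and 517 in A, with 0, 3, 4 and 37 peaks; at 30 min they were 41 in D, 935 in C, 354 in B and 1897 in A, with 5 peaks in D and 27 in B. At 1.3 also 100% of the peaks of D were found in C and 100% in B, and 2 loci were in all 4 lists. A 20-kb flank gave 40.0% of C in A and 3 loci in all lists. Matching within 2.5 kb gave 12.5% of D in C, 37.5% of D in A, 32.0% of C in B, 36.0% of B in A and 1 locus in all lists. Leaving out bins low at 20 min, added after seeing the data, gave 3. The cause was not tested, apart from the thresholds, which admit more or fewer bins by construction. Of heights of single named loci, 643 moved by more than the noise and 517 did not.

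No paired analysis was possible because the labels give no replicate numbers and each strain and minute has 1 library, which also made leaving out a replicate impossible. Measures at annotated origins were not run. Depth is unknown. Differences between strains are differences between single cultures, and their spread between cultures was not measured.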
